A study of Mus musculus with 12 samples.

Results

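The S100 genes described here are 9 mouse genes for small calcium-binding proteins, namely S100a1, S100a4, S100a6, S100a8, S100a10, S100a11, S100a13, S100b and S100g. They were chosen by gene symbol, with their ES and embryoid body signals on these arrays already known, and every probe set annotated to exactly 1 of them was kept. That gave 12 probe sets of 8 genes, out of 45137 probe sets on the 2 chip types. S100a11 had no such probe set, because the 1 probe set that lists it also lists the pseudogene S100a11-ps and a predicted gene, so no value is given for it. The 9 genes are not the whole family on the arrays, and 6 further S100 genes and the binding-protein gene S100pbp are set beside them below.

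The study compared J1 mouse embryonic stem (ES) cells with embryoid bodies, the floating aggregates in which ES cells start to differentiate. The ES cells spent 2 days on 0.1% gelatin in D-MEM with 10% fetal bovine serum, penicillin, streptomycin, non-essential amino acids and glutamax, to which sodium pyruvate, β-mercaptoethanol and leukemia inhibitory factor were added. The embryoid bodies (EB) spent 5 days in bacterial Petri dishes in the same base medium and serum, without those last 3 supplements. Both states came from the 1 cell line J1, and no genetic change is named in the labels. An eye estimate put the ES samples at 95% purity, with DR4 feeders, the mouse fibroblasts used to support ES cells, as the contaminating type. No purity is given for the embryoid bodies. Each state had 3 samples, each hybridized to Affymetrix chips MOE430A (chip A) and MOE430B (chip B), 12 arrays in all. The values are MAS5 signals on a linear scale, which estimate the brightness of a probe set and can be compared between arrays for 1 probe set but not between probe sets. Median signals ran from 586.8 to 679.1 on chip A and from 907.1 to 995.6 on chip B, and 3 arrays per state limit the precision. The labels do not say whether replicates were separate cultures, so the spread between them may be technical. No scan day held arrays of both states. The ES arrays of chip A shared 1 day and the EB arrays took 3 others, while on chip B each state had 1 day, so day and state cannot be told apart. Of 9 measured markers of culture state, 3 fell, 3 rose and 3 did not pass (66.7% called, against 8.79% over all genes). These markers were chosen with earlier results of these data known, so that share is a description and no independent check. Pou5f1, the pluripotency factor, had a mean signal of 14603 in ES cells and 7688 in embryoid bodies, and Frzb, a secreted WNT antagonist, had 56.7 and 3289. Zfp42, an ES cell zinc finger protein, fell by 1.75 (limma adjusted p = 0.0298) and Sox11, a neural and mesenchymal factor, rose by 2.32 (adjusted p = 0.00331), while Nanog (-0.16, adjusted p = 0.57), Sox2 (-0.07, adjusted p = 0.892) and Fgf5 (1.19, adjusted p = 0.119) did not pass. On leaving out arrays or changing a setting the call of Zfp42 was lost in 6 of 15 alternatives.

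S100 proteins carry paired EF-hand loops that bind calcium, and most of them work as dimers. Calcium opens a surface through which they grip target proteins such as annexins, myosin and the cytoskeleton, and several also act outside the cell as signals. In mammals most S100 genes sit together in a cluster, and each is switched on in its own set of tissues, for example S100a4 in fibroblasts and motile cells, S100a8 in neutrophils, S100b in glia and S100g in absorptive epithelia.

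S100a4, S100a5 and S100a6 are adjacent protein-coding genes on mouse chromosome 3 in RefSeq (GRCm38.p6). Their promoter windows are shown because the outer genes of this run had the largest differences among the members, while S100a5 between them had a small one. Each window is read from RefSeq on the gene's strand, 5′ to 3′, from 250 bases before to 50 bases after the annotated start. Capitals mark matches on either strand to any of 3 motifs. TATAAA is the TATA-box core, GGGCGG is the Sp1 core, and TGANTCA is the core bound by AP-1.
S100a4, chr3:90603520-90603819, + strand: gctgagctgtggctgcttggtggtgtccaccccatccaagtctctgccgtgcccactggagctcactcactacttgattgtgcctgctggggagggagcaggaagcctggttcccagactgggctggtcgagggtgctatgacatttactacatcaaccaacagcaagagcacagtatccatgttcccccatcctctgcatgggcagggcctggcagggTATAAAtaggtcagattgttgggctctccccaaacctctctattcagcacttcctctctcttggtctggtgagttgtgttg
S100a5, chr3:90608272-90608571, + strand: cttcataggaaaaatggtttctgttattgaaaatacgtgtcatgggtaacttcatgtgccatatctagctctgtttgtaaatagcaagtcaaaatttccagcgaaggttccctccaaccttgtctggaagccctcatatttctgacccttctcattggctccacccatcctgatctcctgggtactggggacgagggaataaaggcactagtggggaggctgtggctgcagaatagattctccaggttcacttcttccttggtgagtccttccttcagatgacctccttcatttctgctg
S100a6, chr3:90612644-90612943, + strand: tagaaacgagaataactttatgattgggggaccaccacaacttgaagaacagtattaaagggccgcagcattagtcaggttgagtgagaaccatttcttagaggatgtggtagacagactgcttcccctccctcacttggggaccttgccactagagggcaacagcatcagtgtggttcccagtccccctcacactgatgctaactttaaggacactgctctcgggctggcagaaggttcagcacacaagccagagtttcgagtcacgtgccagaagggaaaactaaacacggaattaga

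Among these motifs the S100a4 window held a single match, a TATAAA that begins 31 bases before the annotated start. TATAAA was not particular to S100a4. It also began 30 bases before the start in S100a8 and 29 before it in S100a7l2, and occurred in windows of S100g, S100a9 and S100a3. The windows of S100a5 and S100a6 held none of those 3 motifs. Of 32851 RefSeq promoter windows, 13.6% held TATAAA, 35.7% GGGCGG and 7.81% TGANTCA. The E-box core CANNTG was present in 72.3% of windows, 2 times each in S100a5 and S100a6 and 0 times in S100a4. The S100a1 and S100a13 windows lie on opposite strands and share 204 bases. The table held 8 of the 9 members, and S100a10 was not matched. These are letter matches only.

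S100a4 and S100a6, both known from fibroblasts and from cell motility, had far lower signals in embryoid bodies than in ES cells. Because the members were picked with this comparison known, their values are a description without p-values. S100a4, also called fibroblast-specific protein, binds non-muscle myosin and affects cell movement. Its signal (1424542_at, chip A) was 5123, 3115 and 5204 in ES replicates 1, 2 and 3 and 170.4, 85.2 and 219.7 in EB replicates 1, 2 and 3. Every ES array was above every EB array, ES replicate 2 was the lowest ES array, and EB replicate 2 lay under the pseudocount of 136. The means were 4481 ± 1184 and 158 ± 68.0 (SD, n = 3 each), a ratio of 28.3 on the linear scale. On log2(signal + 136), the scale used for all fits on chip A, the S100a4 difference was -3.96 ± 0.28 (SE). That size depends on the pseudocount, at -4.88 with 1 and -2.68 with the chip median. Arrays that shared a fluidics position, ES 1 with EB 2 and ES 2 with EB 3, gave -4.57 and -3.19. ES 3 and EB 1 shared a position with no other chip A array. Chip A fits with fluidics position as a block therefore rest on those pairs alone.

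S100a6, or calcyclin, is a protein of proliferating fibroblasts and epithelial cells that binds annexins and the ubiquitin-linked factor Cacybp. Its signal (1421375_a_at, chip A) was 9656, 7768 and 10834 in the ES replicates and 1066, 867.7 and 1272.5 in the EB replicates. The states did not overlap, and replicate 2 was the lowest array of each state, as for S100a4. Unlike S100a4, it kept a signal well over the pseudocount in all 3 EB arrays. The means were 9419 ± 1546 and 1069 ± 202 (SD, n = 3 each), a linear ratio of 8.81. On the log2 scale the S100a6 difference was -2.99 ± 0.18 (SE), and the arrays of shared fluidics position gave -3.29 and -2.49.

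**Figure D1:**
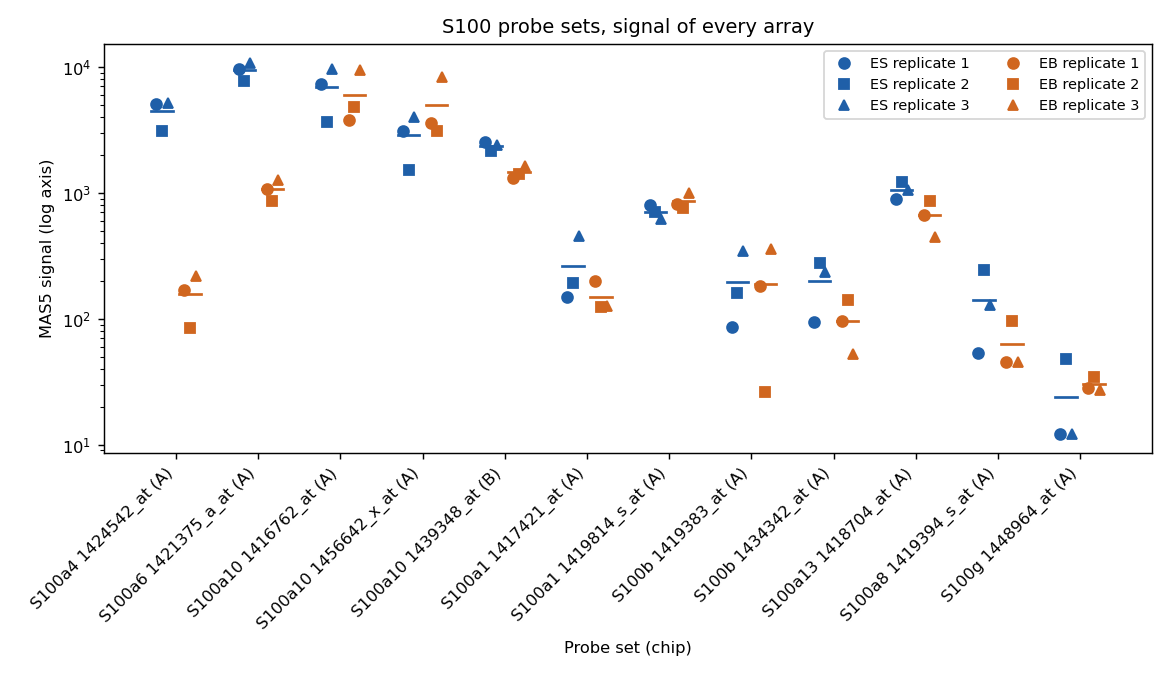
MAS5 signal (log axis) of each S100 member probe set, with its chip in brackets, on every array. Symbols are replicates, blue is ES, orange is EB and short lines are group means, and only heights within 1 probe set can be compared. The S100a4 and S100a6 points of the ES arrays lie far above those of the EB arrays, while those of S100a10, S100a1, S100b, S100a8 and S100g on chip A overlap.

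Over the chip A probe sets, 2 of 11 members were called lower in embryoid bodies by limma with a Benjamini-Hochberg adjusted p under 0.05, 0 were called higher and 9 were not called. Over all 22626 probe sets of chip A, 6.3% were called, 2.91% lower and 3.39% higher. The groups did not overlap, with ES higher, in 3 of the 11, against 14% of all chip A probe sets. The member median on chip A was -0.42, and over 18193 genes with 1 probe set each the median was -0.06. The 1 member probe set on chip B was not called, where 10.7% of all probe sets were (4.91% lower and 5.77% higher). Nothing is read from these counts, since the contrast was known when the members were picked.

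Markers of fibroblasts were set beside S100a4 and S100a6. Of 29 measured markers, 0 rose, 8 fell and 21 did not pass (27.6% called, against 8.79% over all genes, 4.37% lower and 4.42% higher), and their median log2 change was -0.91. The change was negative in 27 of 29, and the others, Twist1 (1.01, adjusted p = 0.144) and Twist2 (0.19, adjusted p = 0.753), both transcription factors of mesenchyme, are named after their values were seen. Their summed chip A signal was 64269, 39581 and 74391 in the ES replicates and 19155, 33120 and 35873 in the EB replicates. The states did not overlap, and ES replicate 2, lowest for S100a4 and S100a6, was also the lowest ES array in this sum. Such a sum follows the brightest probe sets most. Among them were Acta2 (2428, 9173 and 9767 in the EB replicates) and Tagln (1836, 5372 and 7740), neither of them called. Col1a1, a collagen chain made in bulk by fibroblasts, had 6088, 3158 and 5524 in the ES replicates and 54.0, 65.5 and 26.3 in the EB replicates (log2 change -4.73, limma adjusted p = 1.41e-04). All EB arrays lay under the pseudocount, and the size of the Col1a1 change was -6.68 with a pseudocount of 1 and -3.0 with the chip median. Fbln2, a fibroblast matrix protein, fell by 2.34 (limma adjusted p = 0.00172). Lox, a collagen cross-linking enzyme, fell by 2.11, Ddr2, a collagen receptor, by 1.83, the collagen chain Col6a1 by 1.48 and the surface protein Thy1 by 1.35. Ddr2, Lox and Col6a1 also depended on the pseudocount, at -2.55, -2.58 and -1.76 with 1 and at -0.97, -1.38 and -0.97 with the chip median. The calls of Lox, Col6a1 and Thy1 were lost on leaving out some arrays, and those of Lox, Col6a1 and Ddr2 with fluidics position as a block (adjusted p of at most 0.0699). The count of markers that fell was 3 without ES replicate 1, 4 without EB replicate 1 and 5 without EB replicate 2. Acta2, the brightest marker that did not pass, had a log2 change of -0.34. No marker was at 0 on any array, and 2 were under the pseudocount in all EB arrays. Fewer fibroblasts and less of these RNAs per cell cannot be told apart in bulk RNA, and the part of feeder cells in the S100 values was not tested.

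The genes whose profiles over the 6 chip A arrays were closest to S100a4 were Bgn, a matrix proteoglycan, Mgp, a mineralization inhibitor, Col1a1, S100a6, and Pcolce, a procollagen-processing enhancer. Closeness was the root mean square difference of centred log2 values, from 0.35 for Bgn to 0.56 for Pcolce. The genes closest to S100a6 were Gdf3, a TGF-beta family ligand of ES cells, Plac8, Cbx7, a Polycomb protein, Igfbp7, a secreted growth factor binder, and Pcolce, at 0.29 to 0.36. Col1a1 was the only one of these from the fibroblast list. With Pearson correlation in place of this distance, 1 of the 5 genes was shared for S100a4 and 1 for S100a6. With 6 arrays that all share the same state difference, these are descriptions.

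**Figure D2:**
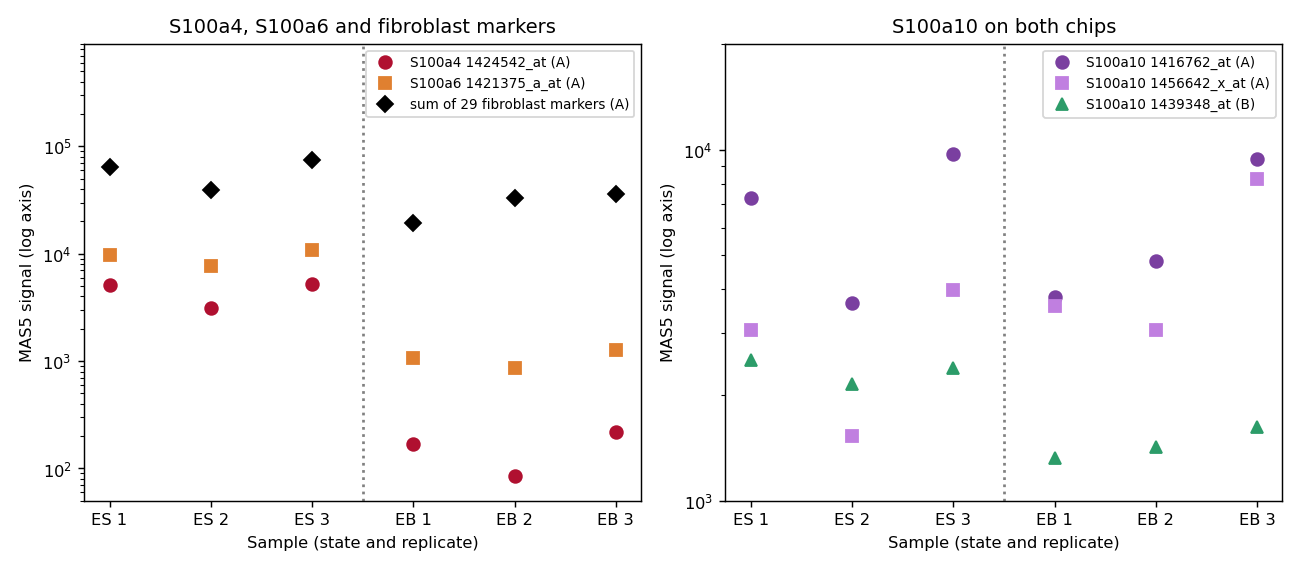
MAS5 signal (log axis) by sample for S100a4, S100a6 and the summed fibroblast markers (left) and for the 3 S100a10 probe sets (right), with the dotted line between states. Replicate 2 is the lowest ES sample in every series, and the S100a10 probe set of chip B separates the states while those of chip A do not.

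S100a10 was not called on any of its 3 probe sets, and the difference between them was not tested. The protein has lost calcium binding and keeps its active shape without it, pairing with Anxa2 at the plasma membrane, where the complex carries plasminogen activation and ion channels. On chip A, 1416762_at read 7271, 3669 and 9713 in the ES replicates and 3807, 4826 and 9402 in the EB replicates. The states overlapped throughout, with ES replicate 2 as the lowest array of all and EB replicate 3 close to the highest ES array. Its log2 change was -0.19 ± 0.38 (SE, 95% interval from -1.04 to 0.66). The sign turned to 0.37 with fluidics position as a block, to 0.08 without EB replicate 1 and to 0.11 without ES replicate 3.

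The second chip A probe set, 1456642_x_at, is of a class whose probes can match other transcripts. It read 3072, 1532 and 3979 in the ES replicates and 3581, 3072 and 8277 in the EB replicates. ES replicate 2 was again lowest and EB replicate 3 highest, and the change was 0.73 ± 0.40 (SE, interval from -0.16 to 1.62). It was 0.30 without EB replicate 3 and 0.35 without ES replicate 2. On chip B, 1439348_at read 2524, 2150 and 2394 in the ES replicates and 1322, 1424 and 1622 in the EB replicates. Here the states did not overlap, against 16.2% of chip B probe sets that were separated in this direction, and the spread was small. The change was -0.61 ± 0.25 (SE, interval from -1.17 to -0.06) and was not called. The 3 pairs of chip B arrays with a shared fluidics position gave -0.82, -0.52 and -0.50. The same RNA samples went onto both chip types. The SD of log2 values in ES cells and embryoid bodies was 0.70 and 0.66 for 1416762_at on chip A, and 0.11 and 0.13 for the chip B probe set. The cause of the difference was not tested.

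A list of known partners of S100 proteins was set beside the members. Of 32 measured, 0 rose, 3 fell and 29 did not pass, so 9.38% were called, close to the 8.79% of all genes, with a median log2 change of -0.31. Ahnak, a giant scaffold bound by the S100a10 and Anxa2 complex, fell by 1.62 (limma adjusted p = 0.0205). Anxa1, the partner of S100a11, fell by 1.47 (adjusted p = 0.0306), with 3258, 1653 and 2971 in the ES replicates and 524.9, 788.6 and 1320 in the EB replicates. Atp2a2, the calcium pump that S100a1 stimulates in heart, fell by 0.86 (adjusted p = 0.0108). On the probe sets used, ES replicate 2 was the lowest ES array for each of these 3 genes. No other probe set of the 3 genes was called. The others of Atp2a2 had changes from -0.56 to -0.05. Those of Ahnak had -0.23, -0.16 and 0.04, the last 2 of them under the pseudocount on all 6 arrays. Anxa1 on chip B had 0.33, under that chip's pseudocount on 5 arrays. The calls depended on single arrays. That of Ahnak was lost on leaving out EB 1, EB 2, EB 3 or ES 1, with an adjusted p of at most 0.0906. That of Anxa1 was lost on leaving out EB 1, EB 2, ES 1 or ES 3, at most 0.122, with fluidics position as a block, 0.143, and without the intensity trend, 0.0662. That of Atp2a2 was lost on leaving out EB 1 or ES 1, at most 0.0604. No partner was called without ES 1.

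Several direct partners did not pass, and Anxa2 and Myh9 are named after their values were seen. Anxa2 itself had 9699, 5529 and 5837 in the ES replicates and 4280, 4677 and 3704 in the EB replicates (log2 change -0.68, adjusted p = 0.0953). Myh9, the non-muscle myosin heavy chain bound by S100a4, had a change of 0.59 (adjusted p = 0.138), opposite in sign to S100a4. Bsg, a receptor for S100a9 and the brightest partner that did not pass, had a change of -0.15 (adjusted p = 0.582).

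S100a1 and S100b, best known from heart muscle and from glia, were not called on any probe set. For S100a1, 1417421_at read 149, 192 and 452 in the ES replicates and 199, 125 and 127 in the EB replicates, a log2 change of -0.42 ± 0.32 (SE). ES replicate 3 stood above all other arrays, which overlapped. The other S100a1 probe set, 1419814_s_at, read 794.8, 706.7 and 618.5 in the ES replicates and 810.9, 751.4 and 1001 in the EB replicates, with a change of 0.23 ± 0.24. Its states overlapped as well, and its direction was opposite. S100b was dim on both of its probe sets. The first, 1419383_at, ran from 86.6 to 344.5 in ES cells and from 26.2 to 359.5 in embryoid bodies (log2 change -0.10 ± 0.43). Its sign turned to 0.15 with fluidics position as a block, to 0.33 without EB replicate 2 and to 0.20 without ES replicate 3. The second, 1434342_at, ran from 93.6 to 275.2 and from 52.8 to 141.7 (-0.51 ± 0.29), with overlap.

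S100a13, which helps Fgf1 and Il1a leave the cell by a route without a signal peptide, was measured by 1418704_at. The ES replicates read 888.8, 1218 and 1051, and the EB replicates read 667.9, 868.7 and 448.3. All ES arrays were above all EB arrays, by a narrow gap between ES replicate 1 and EB replicate 2. The log2 change was -0.60 ± 0.27 (SE, 95% interval from -1.20 to 0.00), and the probe set was not called. Arrays of shared fluidics position gave -0.03 and -1.21. Its cargo genes Fgf1 and Il1a, named after their values were seen, had changes of -0.54 (limma adjusted p = 0.335) and 0.32 (adjusted p = 0.427). Il1a lay under the pseudocount on 5 arrays, so its change is at the floor.

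S100a8 and S100g were near the floor of the arrays. S100a8 pairs with S100a9 in neutrophils and monocytes. Its probe set, 1419394_s_at, read 53.6, 242.9 and 129.7 in the ES replicates and 45.6, 96.8 and 45.4 in the EB replicates, under the pseudocount on 5 of 6 arrays. ES replicate 2 was the exception, the states overlapped, and the log2 change was -0.44 ± 0.27. S100a9 was also highest in ES replicate 2, at 612.7, against 210.4 and 30.7 in the other ES arrays and 113.8, 77.6 and 56.9 in the EB replicates. Of 16 neutrophil and macrophage markers, limma called 0, against 8.79% over all genes, while 2 had an unadjusted p under 0.05. Their summed chip A signal was 7333, 8480 and 7052 in the ES replicates and 4552, 6285 and 4866 in the EB replicates, with Csf1r, a macrophage growth factor receptor, as the brightest. No marker was at 0, and the part of such cells was not tested. S100g, or calbindin-D9k, buffers calcium in gut and kidney epithelium and does not form dimers. Its probe set, 1448964_at, read 12.1, 47.6 and 12.1 in the ES replicates and 28.2, 34.6 and 27.4 in the EB replicates, below the pseudocount on every array. With these values no difference could be seen (0.06 ± 0.15). Extraembryonic endoderm markers were listed because visceral endoderm is an absorptive epithelium. Of 18 measured, 0 rose, 1 fell and 17 did not pass, a called share of 5.56% against 8.79% over all genes. The change was negative in 8 of 18, with a median of 0.02. The gene that fell was Rhox5 (-1.90, limma adjusted p = 9.50e-04), which was bright in the ES replicates (6508, 6110 and 7665). The brightest uncalled marker was Sparc, a matrix protein, at -0.47.

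**Figure D3:**
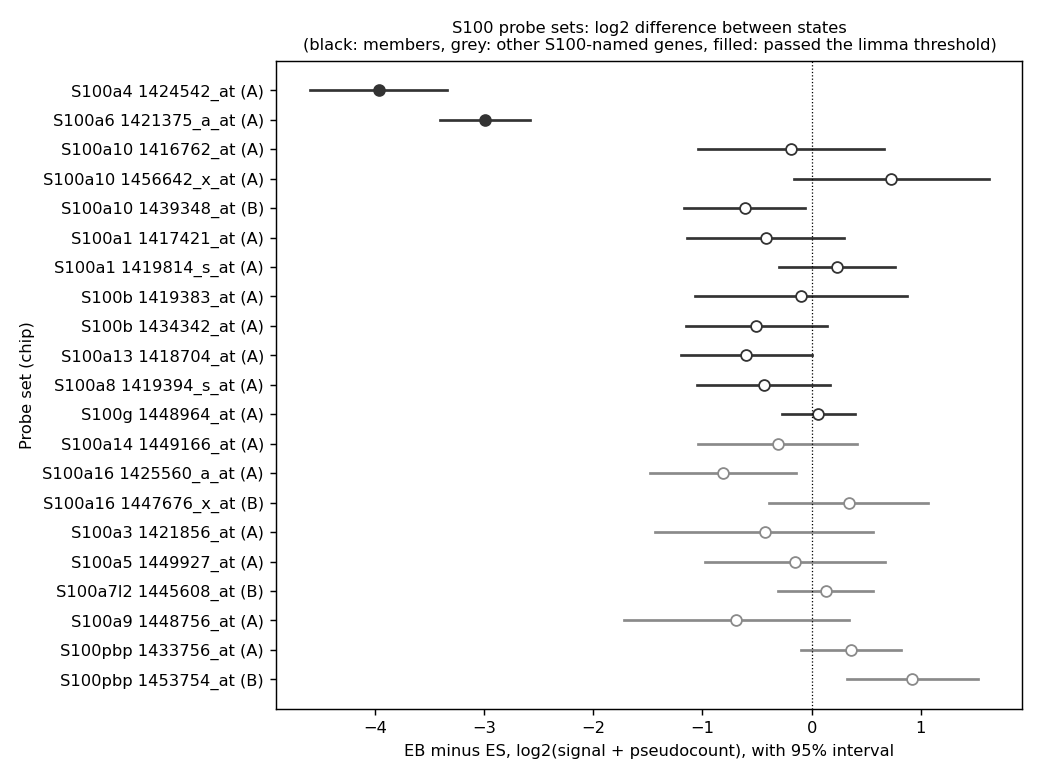
Embryoid body minus ES difference on the log2(signal + pseudocount) scale for every probe set of the members (black) and of other S100-named genes (grey), with 95% intervals of the limma fit. Filled points, S100a4 and S100a6, passed the threshold, and the largest size among the other member probe sets was 0.73.

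Outside the member list, 6 further S100 genes and S100pbp were measured. Of these 7, limma called 0, against 8.79% over all genes, and 1 had an unadjusted p under 0.05. That was S100a16, a broadly expressed member, with 1016, 1253 and 1155 in the ES replicates and 795.2, 332.9 and 737.4 in the EB replicates (log2 change -0.81, adjusted p = 0.143). Its chip B probe set pointed the other way, at 0.34 with overlapping states (adjusted p = 0.535). S100a5, which lies between S100a4 and S100a6, had 431.8, 1156 and 373.8 in the ES replicates and 498.2, 529.4 and 506.6 in the EB replicates. Apart from the high ES replicate 2 the arrays were alike, and the change was -0.15 (95% interval from -0.98 to 0.67, adjusted p = 0.853). S100a3, on the other side of S100a4, had a change of -0.43 (interval from -1.43 to 0.56, adjusted p = 0.624). S100pbp is no S100 protein but binds one, and had a change of 0.36 on chip A (adjusted p = 0.344) and 0.92 on chip B (adjusted p = 0.0545).

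Along chromosome 3, S100a4 and S100a6 had the largest log2 differences of the measured genes in the stretch described here. The stretch from S100a1 to S100a10, with 5 genes either side, held 42 measured genes outside the S100 family, among them the late cornified envelope (Lce) and small proline-rich (Sprr) genes of skin. Of these 42, 2 rose, 0 fell and 40 did not pass, a called share of 4.76% against 8.79% over all genes, and their median log2 change was -0.12. Lelp1, a late cornified envelope-like gene on chip B, rose by 1.87 (limma adjusted p = 0.0126), with 235.5, 746.0 and 549.2 in the ES replicates and 2487, 2062 and 2753 in the EB replicates. Chtop, which encodes a chromatin-associated factor and is the measured gene just before S100a1, rose by 0.84 (adjusted p = 0.0311). Another chip A probe set of Chtop had a change of only 0.17, with overlapping states, and was not called (limma adjusted p = 0.547). The call of Chtop was lost on leaving out any single array other than ES 3, with an adjusted p of at most 0.111. It was also lost without the intensity trend (0.0864). That of Lelp1 was lost on leaving out EB 1 or EB 3, at most 0.0571, and its size was 2.39 with a pseudocount of 1 and 1.22 with the chip median. Lce3b, the brightest that did not pass, had a change of -0.46 (adjusted p = 0.211). Lce1h, named after its values were seen, had -1.49 and just missed the threshold (adjusted p = 0.0518), with all ES arrays above all EB arrays. In some alternative settings 1 of the 42 was called lower, as given below.

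**Figure D4:**
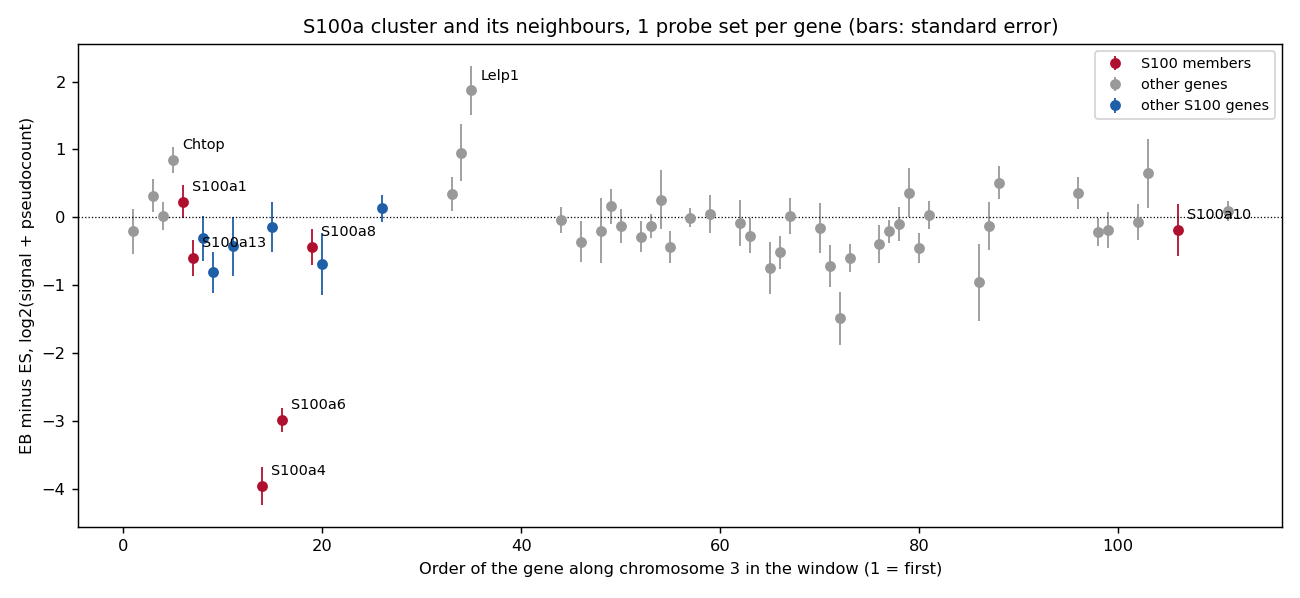
Embryoid body minus ES log2 difference of each measured gene in the chromosome 3 stretch that holds the S100a genes, in gene order, with standard errors. S100a4 (-3.96) and S100a6 (-2.99) lie far under the rest, and the labelled grey points are the genes that rose, Chtop (0.84) and Lelp1 (1.87).

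The spread between replicates was also described, though the members were picked with their signals on these arrays known. Members and all probe sets were not matched for brightness. Of the 12 member probe sets, 6 were at or above the pseudocount on every array. On chip A, the median SD of log2 values among ES replicates was 0.45 over the 11 member probe sets and 0.29 over all 22626. Among EB replicates it was 0.28 over the members and 0.23 over all. The members' SD ran from 0.15 to 0.70 in ES cells, lowest for S100a1 (1419814_s_at) and highest for S100a10 (1416762_at). In embryoid bodies it ran from 0.03 for S100g, which is at the floor, to 0.81 for S100b (1419383_at). These medians are descriptions, and they were not tested.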

How the data were processed

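The authors deposited 1 table per chip with a MAS5 intensity per probe set (version not stated), per the submitters' processing notes. Trimmed means without the lowest and highest 2% of values lay between 1500 and 1501 on every array, so the arrays had been scaled before deposit, and no further normalization was applied. Text files of the scanner gave other values, namely fluidics positions and scan days, per the file headers. Probe sets were named from the platform's annotation, and 64 control probe sets per chip were left out. Each chip was fitted separately, EB against ES, on log2(intensity + pseudocount), the pseudocount being the 20th percentile of the chip's values (136 on chip A, 253 on chip B). A linear model per probe set was fitted in R 4.3.3 with limma 3.58.1, whose moderated variances followed the mean intensity. P-values were adjusted by Benjamini-Hochberg across each chip and called at 0.05. "Rose" and "fell" mean that this threshold was passed. Each listed gene was represented by a single probe set annotated to it alone, preferring chip A, then IDs not ending in _x_at, then the highest mean. Named were all member probe sets, and per list the called genes with the largest changes and the brightest uncalled one. No other probe set of a named gene was called in the opposite direction. The members, the lists and the tests were chosen with earlier results of these data known. The lists were other S100 genes, S100 partners, other EF-hand proteins, fibroblast, neutrophil and macrophage, extraembryonic endoderm, culture state and cluster neighbours. The fit was tested on simulated data. Promoters are from RefSeq.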

Additional observations from a re-analysis of the deposited data

How the results depend on the processing

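The log2 differences of S100a4 and S100a6 ran from -4.88 to -2.68 and from -3.14 to -2.56 over 15 alternatives, which describes the processing and is no independent support, since the members were picked with this contrast known. Of the other member probe sets, 1416762_at of S100a10 turned to 0.37 and 1419383_at of S100b to 0.15 with fluidics position as a block. On chip A that block rests on ES 1 with EB 2 and ES 2 with EB 3 alone. For these probe sets, leaving out single arrays gave -0.58 to 0.11 and -0.48 to 0.33. Acta2 turned to 0.52 with that block, with -0.70 to 0.29 on leaving out arrays, and Sox2, which did not pass, turned to 0.02 with median scaling, with -0.26 to 0.12 on leaving out arrays. The 8 called fibroblast markers became 13 without dim probe sets and 13 with scan day as a random block, which could be fitted on chip A only. No scan day held both states, so the scan day block cannot take day out of the comparison. Its fitted correlation within a day was -0.113. The count of called fibroblast markers was 4 with the position block and 3 to 10 on leaving out arrays. On leaving out arrays, the 3 called partners became 0 to 4 and the 3 called genes of the EF-hand list 1 to 3. The 2 called cluster neighbours became 0 to 2 in the same way, and were 1 without the intensity trend. Their count was 3, with 1 of them lower, without dim probe sets, with a pseudocount of 1 and with scan day as a random block. Without ES 1, 1 neighbour was called higher and 1 lower. The EF-hand count was 1 with the position block and 1 with replicate number as a block. Same-numbered samples did not deviate together (correlations from -0.07 to 0.04 on chip A and from -0.03 to -0.02 on chip B), so the numbers were not taken as pairs. Pearson correlation shared 1 of 5 nearest genes for S100a4 and 1 for S100a6. The cause of these changes was not tested. For named genes of the lists, 385 alternative values kept direction and side of the threshold, 58 lost the call and 5 turned sign. Signal near the floor limits S100a8, S100b and S100g.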

Other observations

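A list of other calcium-binding proteins, most of them of the EF-hand family, was set beside the members. Of 26 measured, 1 rose, 2 fell and 23 did not pass. The called share was 11.5%, near the 8.79% over all genes, and the median log2 change was -0.17. Calml4, a calmodulin-like protein of brush border epithelium, had 1449, 639.0 and 1075 in the ES replicates and 41.9, 99.8 and 21.8 in the EB replicates. It fell by 2.60 ± 0.35 (SE, limma adjusted p = 0.00399), and all EB arrays were under the pseudocount. The size was -4.44 with a pseudocount of 1 and -1.28 with the chip median. Plscr1, a scramblase that moves membrane lipids, rose by 1.32, from 75.7, 241.5 and 232.4 to 701.6, 585.9 and 626.9 (adjusted p = 0.0413). Rcn3, a protein of the endoplasmic reticulum needed for collagen production, fell by 0.77 (adjusted p = 0.0439). Calu, a related protein of the secretory pathway and the brightest that did not pass, had a change of -0.24 (adjusted p = 0.342). The call of Rcn3 was lost in 12 of 15 alternatives, among them leaving out any single array (adjusted p up to 0.157), fluidics position as a block (0.226), replicate number as a block (0.0673), median scaling (0.0726) and quantile normalization (0.0516). That of Plscr1 was lost in 8 of 15, on leaving out any single array other than ES 3 (up to 0.141), with those blocks (0.118 and 0.07) and with a pseudocount of 1 (0.0539), and its size was 1.97 with that pseudocount and 0.65 with the chip median.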
